A study of Mus musculus with 7 samples.

Results

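The miR-30 family was followed through 7 mature arms in small RNA libraries of sorted mouse embryonic spinal cells. The arms were mmu-miR-30a-5p, mmu-miR-30b-5p, mmu-miR-30c-5p, mmu-miR-30d-5p, mmu-miR-30e-5p, mmu-miR-30a-3p and mmu-miR-30e-3p, chosen by name from the 1908 mature miRNAs of each deposited table. At E10.5, 2 libraries came from GFP-positive motoneurons and 2 from GFP-negative, non-motoneuron spinal cells of Hb9::gfp embryos, in which GFP reports the motoneuron gene Hb9. At E12.5, 1 library came from GFP-positive Hb9::gfp motoneurons, 1 from tdTomato-positive V2a interneurons of Chx10::cre;Rosa26::LSL::tdTomato embryos and 1 from tdTomato-positive V3 interneurons of Sim1::cre;Rosa26::LSL::tdTomato embryos. In the interneuron lines the reporter marks cells in which Cre has been active. The labels do not say whether the E10.5 replicates were independent sorts or animals, so their p-values rest on a spread between libraries that may be only technical.

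A microRNA is cut from a hairpin transcript, and either arm of the hairpin, called 5p or 3p, can be loaded into an Argonaute protein. The seed, bases 2 to 8 of the loaded strand, pairs with target mRNAs and lowers their stability or translation. The miR-30 family is expressed in many vertebrate tissues, its 5p arms share 1 seed, and in human cells miR-30a has been linked to the autophagy gene BECN1.

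The sequences show what the members share and where the counting of reads could confuse them. RefSeq (GRCm38.p6) gave mature sequences for 5 of the 7 members, and the seed is in capitals.
miR-30a-5p: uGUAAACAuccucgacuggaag
miR-30e-5p: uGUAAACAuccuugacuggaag
miR-30c-5p: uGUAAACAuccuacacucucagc
miR-30a-3p: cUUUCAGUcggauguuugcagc
miR-30e-3p: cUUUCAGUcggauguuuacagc
The 3 5p sequences shared the seed GUAAACA. Of the 1603 rows of the tables with a RefSeq sequence, 4 carried that seed, and the one that was no member was miR-384-5p. The 3p seed UUUCAGU was carried by 2 rows, miR-30a-3p and miR-30e-3p. Counted from the 5′ end, miR-30e-5p differed from miR-30a-5p by 1 base of 22 (C13U), and miR-30e-3p from miR-30a-3p by 1 base of 22 (G18A). miR-30c-5p differed from miR-30a-5p at 5 of the 22 positions compared.

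These near-identical sequences set how far single members can be read. The deposited E10.5 table put all 5 5p members into 1 bundle of rows that share reads, and put miR-30a-3p and miR-30e-3p into another with miR-30f. The split of reads within a bundle was the authors' estimate, so single members are uncertain and the summed level of a bundle is firmer. The 2 hairpins with both arms among the members are shown, with the mature arms in capitals.
Mir30a: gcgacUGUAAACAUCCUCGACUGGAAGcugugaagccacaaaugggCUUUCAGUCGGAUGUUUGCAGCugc
Mir30e: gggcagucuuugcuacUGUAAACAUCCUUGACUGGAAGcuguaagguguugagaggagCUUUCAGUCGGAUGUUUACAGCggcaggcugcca

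In GRCm38, the family lay in 3 pairs of hairpins. Mir30a (chr1:23272269-23272339, plus strand) overlapped no other annotated gene, and Mir30c-2 lay 19432 bases further along, in an exon of the lincRNA gene Gm27028. Mir30e (chr4:120772606-120772697, minus strand) and Mir30c-1, 3072 bases away, lay in introns of Nfyc on the same strand as that gene, which encodes a subunit of the NF-Y transcription factor. Mir30b (chr15:68337415-68337510) and Mir30d (chr15:68341208-68341289) lay 3793 bases apart on the minus strand, in exons of noncoding genes (Gm26621 for Mir30b, Gm20732 and Gm37296 for Mir30d). Mature miR-30c-5p can come from both Mir30c hairpins, so its reads cannot be assigned to either locus.

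Depth was estimated from the value of 1 read as 493205 to 802675 reads at E10.5 and about 3601836 to 4605438 reads at E12.5. miR-218-5p, the motoneuron miRNA of the series title, took 17.8% and 20.03% of the reads of the E10.5 motoneuron libraries, against 0.662% and 0.731% in non-motoneurons. Of markers of other cells, the 10 mesenchymal and smooth muscle miRNAs summed to 1571 and 424 RPM (reads scaled to the same library total) in motoneurons and 81413 and 94290 RPM in non-motoneurons, with 1 and 2 of the 10 at 0 in the motoneuron libraries and 0 at 0 in the others, and 10 of 10 were called lower in motoneurons. In motoneurons against non-motoneurons, 3 of 3 tested skeletal muscle miRNAs, 3 of 3 sensory neuron miRNAs and the 1 tested endothelial miRNA were lower, and 2 of 2 neuronal miR-124 arms were higher. No blood miRNA was abundant enough to test, and 2 of the 3 stood at 0 in each motoneuron library. The part of these differences in cell make-up in the miR-30 values was not tested, beyond the totals recomputed without them.

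At E10.5 the miR-30 5p arms were abundant in every library and slightly lower in motoneurons as deposited. The summed 5p level was 29168 and 26565 RPM in motoneurons and 34434 and 34624 RPM in non-motoneurons, so each motoneuron library lay below both others. The family's 5p arms thus held 2.92% and 2.66% of all miRNA reads in motoneurons and 3.44% and 3.46% in non-motoneurons. The log2 fold change of the summed level, fitted with limma on log2(RPM + 1) over 420 rows after summing each bundle, was -0.31 (95% interval -0.65 to 0.02, limma adjusted p = 0.118), which missed the threshold of 0.05. In sorted bulk cells, a lower level in each cell and fewer cells with a high level cannot be told apart.

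The median log2 fold change over the 420 rows with bundles summed was -0.38, so the summed 5p level sat close to the middle of that fit. Over all 492 miRNAs tested row by row the median was -0.34. The members' log2 fold changes lay between the 34.6th and the 67.9th percentile of all tested miRNAs. Relative to the median of all miRNAs, miR-30e-5p was at 0.00, miR-30c-5p at 0.04, miR-30a-5p at -0.10 and miR-30d-5p at 0.14 on the log2 scale. Farther from it were miR-30a-3p at 0.19, miR-30b-5p at -0.44 and miR-30e-3p at 0.44. With totals taken without miR-218-5p, the log2 fold change of the summed 5p level was -0.02, with the median of ratios it was -0.03, and with totals without the 5 most abundant miRNAs its sign turned, to 0.066. It was called lower under quantile normalization of the summed bundles (-0.33, limma adjusted p = 0.0419) and with totals without the mesenchymal and muscle markers (-0.45, limma adjusted p = 0.046). Quantile normalization of single rows gave mixed signs: -0.41 for miR-30b-5p, -0.22 for miR-30a-5p, -0.054 for miR-30d-5p, 0.29 for miR-30e-5p and 0.38 for miR-30c-5p. The result of quantile normalization thus depends on whether bundles are summed first.

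Of the 7 members, all 7 passed the abundance filter of 15.2 RPM in at least 2 libraries. As deposited, 1 was called lower in motoneurons and 0 higher, where 42.3% of all tested miRNAs were called, 30.7% lower and 11.6% higher. The whole table had 57 higher and 151 lower, against 85 and 118 with the median of ratios, 88 and 115 with totals without miR-218-5p, 105 and 115 with totals without the 5 most abundant miRNAs and 114 and 100 under quantile normalization. At an unadjusted p under 0.05, 259 of the 492 passed. For 5 members the motoneuron libraries lay wholly below the non-motoneuron libraries, and a fall without overlap was seen in 48.6% of all tested miRNAs, out of 73.6% without overlap in either direction.

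**Figure D1:**
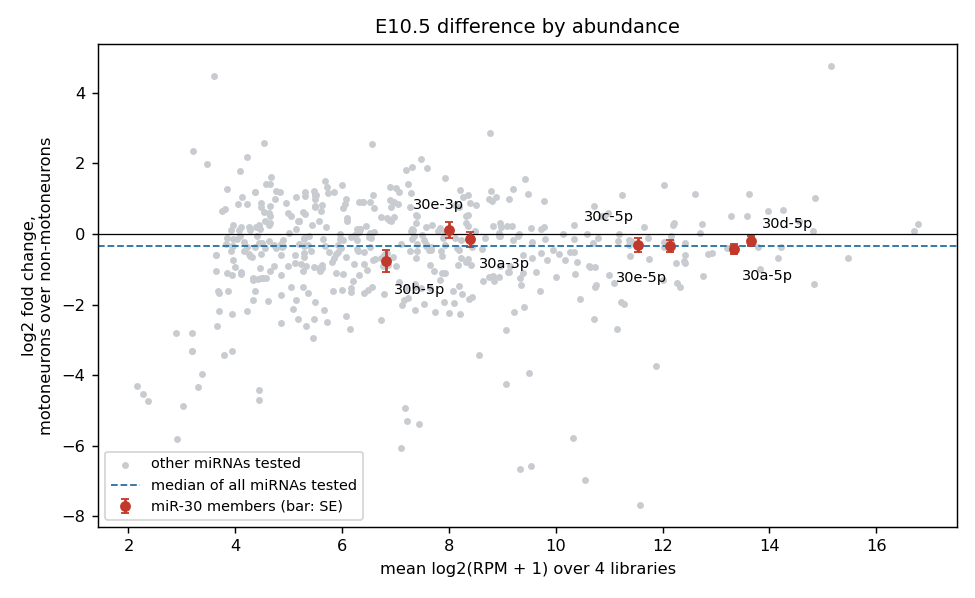
Each point is 1 of the 492 miRNAs tested at E10.5; the x axis is the mean log2(RPM + 1) over 4 libraries and the y axis the log2 fold change of motoneurons over non-motoneurons. The miR-30 members (red, bars are the SE) lie around the dashed median of all miRNAs at -0.34, and 6 of the 7 lie below 0.

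The 2 leading members were miR-30d-5p and miR-30a-5p. mmu-miR-30d-5p had 11936 and 12204 RPM in motoneurons and 13824 and 13919 RPM in non-motoneurons. Its libraries did not overlap and its log2 fold change was -0.20 (SE 0.13, 95% interval -0.52 to 0.11, limma adjusted p = 0.26). It was the 16th or 17th most abundant miRNA in each of the 4 libraries. mmu-miR-30a-5p had 9433 and 8454 RPM in motoneurons and 12438 and 11782 RPM in non-motoneurons. It was the member called lower, at a log2 fold change of -0.44 (SE 0.14, 95% interval -0.78 to -0.10, limma adjusted p = 0.0448). That call was lost with the median of ratios, under quantile normalization, without the abundance filter and in the settings that follow. With totals without miR-218-5p the value was -0.15 (limma adjusted p = 0.439) and with totals without the 5 most abundant miRNAs -0.062. Without motoneuron replicate 1 the limma adjusted p was 0.111, without motoneuron replicate 2 it was 0.235, and without non-motoneuron replicate 1 it was 0.0752.

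The middle members, miR-30e-5p and miR-30c-5p, were spread more widely between the motoneuron replicates. mmu-miR-30e-5p had 4596 and 3525 RPM in motoneurons and 5010 and 5169 RPM in non-motoneurons, without overlap (limma adjusted p = 0.164 for a log2 fold change of -0.34, SE 0.18). mmu-miR-30c-5p had 3097 and 2313 RPM in motoneurons and 3011 and 3609 RPM in non-motoneurons, and here the groups overlapped (limma adjusted p = 0.263 for a log2 fold change of -0.30, SE 0.20). Neither difference passed the threshold. Both signs turned with totals without the 5 most abundant miRNAs, to 0.039 for miR-30e-5p and 0.077 for miR-30c-5p, and under quantile normalization, to 0.29 and 0.38.

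miR-30b-5p was by far the rarest 5p member. mmu-miR-30b-5p had 107 and 68.9 RPM in motoneurons and 151 and 144.8 RPM in non-motoneurons. Its log2 fold change of -0.77 was the lowest of the 7, with an SE of 0.31 and a 95% interval of -1.52 to -0.03, and its limma adjusted p of 0.087 missed the threshold. It passed (limma adjusted p = 0.0478) without motoneuron replicate 1, at a log2 fold change of -1.09, and had -0.46 without motoneuron replicate 2. It stayed below 0 under the 6 scalings plotted.

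For the 3p arms the groups lay close together as deposited. mmu-miR-30a-3p had 296 and 343 RPM in motoneurons and 352 and 354 RPM in non-motoneurons (limma adjusted p = 0.618 for a log2 fold change of -0.15, SE 0.21). mmu-miR-30e-3p had 251 and 277 RPM in motoneurons and 254 and 236 RPM in non-motoneurons, which overlapped (limma adjusted p = 0.734 for a log2 fold change of 0.11, SE 0.22). Neither passed, and both signs depended on the scaling: miR-30a-3p was above 0 with totals without miR-218-5p (0.14), and miR-30e-3p was below 0 with totals without the mesenchymal and muscle markers (-0.031). miR-30e-3p had the highest fold change of the 7 under each of the 6 scalings plotted, at 0.38 with the median of ratios, 0.48 with totals without the 5 most abundant miRNAs and 0.68 under quantile normalization (limma adjusted p = 0.0599). The sum of their bundle, which holds miR-30f too, had a log2 fold change of -0.04 (95% interval -0.48 to 0.40, limma adjusted p = 0.87).

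**Figure D2:**
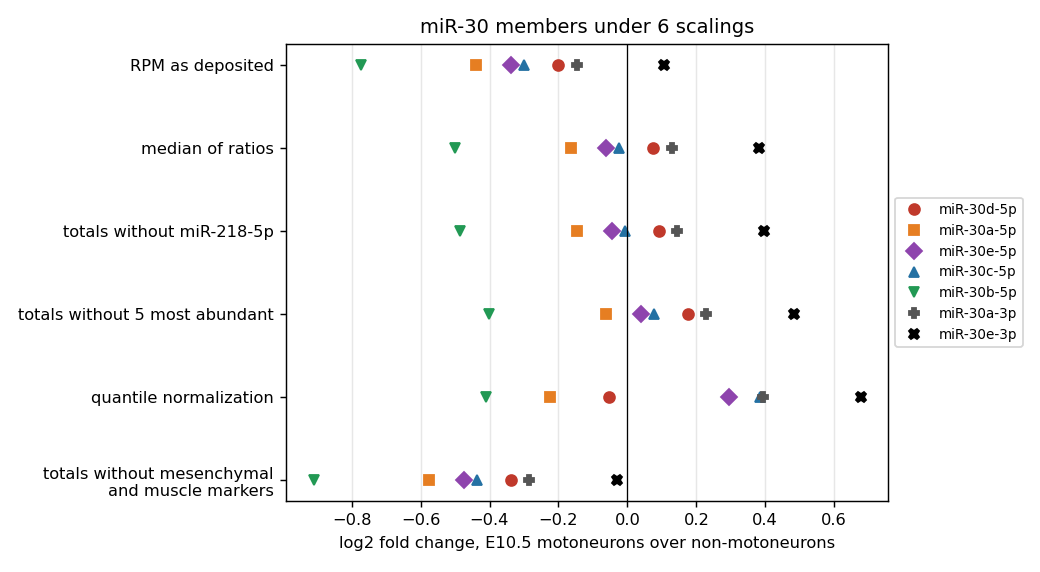
Log2 fold changes of the 7 miR-30 members at E10.5, motoneurons over non-motoneurons, on the x axis, under each of 6 scalings down the page. Changes of the library totals shift the members together, while quantile normalization also changes their spacing and order, with miR-30c-5p at 0.38 and miR-30d-5p at -0.054. miR-30a-5p and miR-30b-5p stay below 0 in every row shown.

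Ratios within a library do not depend on its scaling. In the summed 5p level at E10.5, miR-30d-5p made up 40.9% and 45.9% in motoneurons and 40.1% and 40.2% in non-motoneurons. miR-30a-5p made up 32.3% and 31.8% in motoneurons and 36.1% and 34.0% in non-motoneurons. Relative to its family, miR-30a-5p was thus lower and miR-30d-5p higher in each motoneuron library than in either non-motoneuron library. The level of miR-30d-5p over miR-30a-5p was 1.27 and 1.44 in motoneurons, against 1.11 and 1.18 in non-motoneurons. miR-30b-5p made up 0.367% and 0.259% in motoneurons and 0.437% and 0.418% in non-motoneurons, again without overlap. The shares of miR-30e-5p (15.8% and 13.3% in motoneurons, 14.5% and 14.9% in non-motoneurons) and of miR-30c-5p (10.6% and 8.71% in motoneurons, 8.74% and 10.4% in non-motoneurons) overlapped. For each ratio without overlap the two-sided exact permutation p was 0.333, the smallest that 2 libraries against 2 allow. Lack of overlap alone fixes that value, so it adds no support. Overlap was not counted for the ratios of other miRNAs, and 73.6% of single tested miRNAs had none.

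At E12.5 the summed 5p level was similar in the 3 neuron types when scaled to the library total, and differed between them under other scalings. The deposited values were read as FPKM, reads scaled by transcript length and by library total, and were rescaled to TPM, which has the same sum in every library; with 1 library per population there is no replicate check. The summed 5p level was 1151 TPM in motoneurons, 1174 TPM in V2a and 1113 TPM in V3 interneurons. The ratio was 0.98 for motoneurons over V2a (95% counting interval 0.94 to 1.02), 1.03 for motoneurons over V3 (0.99 to 1.08) and 1.05 for V2a over V3 (1.01 to 1.10). The intervals come from the reads of the 2 libraries and cover counting error only. On the log2 scale, the ratio of motoneurons over V2a was -0.029, against 0.22 with the median of ratios and -0.68 with totals without the 5 most abundant miRNAs. That of motoneurons over V3 was 0.048, against -0.19 and -0.79 under the same alternatives, and that of V2a over V3 was 0.076, against -0.42 and -0.11. The median log2 ratio over all 712 miRNAs considered was -0.22 for motoneurons over V2a, 0.23 for motoneurons over V3 and 0.50 for V2a over V3, beside -0.11, -0.079 and 0.0078 over the 7 members.

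All 7 members passed the E12.5 filter of 2.41 TPM in at least 2 libraries, as did 712 miRNAs in all. None of the 7 differed 2-fold in any of the 3 comparisons, where the share of all considered miRNAs past 2-fold was 39.0% for motoneurons over V2a, 45.9% for motoneurons over V3 and 38.8% for V2a over V3. With totals without the 5 most abundant miRNAs, miR-30e-3p passed 2-fold for motoneurons over V3 (log2 ratio -1.12).

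The order of the members differed from that in the E10.5 table. miR-30c-5p was the most abundant at E12.5, with 519.5 TPM in motoneurons, 483 TPM in V2a and 567 TPM in V3. miR-30d-5p followed with 381 TPM in motoneurons, 419.9 TPM in V2a and 297 TPM in V3, at a V2a over V3 ratio of 1.41 (95% counting interval 1.32 to 1.52). That log2 ratio of 0.50 lay at the median over all miRNAs (0.50), and with the median of ratios it was 0.0061. miR-30a-5p had similar levels in the 3 libraries, at 191 TPM in motoneurons, 207 TPM in V2a and 196 TPM in V3. So did miR-30e-5p, at 38.0 TPM in motoneurons, 40.1 TPM in V2a and 40.1 TPM in V3.

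miR-30b-5p was again the rarest member, at 21.7 TPM in motoneurons, 24.3 TPM in V2a and 13.5 TPM in V3. Its ratio of V2a over V3 was 1.80 (95% counting interval 1.29 to 2.54), from about 109 and 56 reads, a log2 ratio of 0.85 that was 0.36 with the median of ratios. miR-30b-5p and miR-30d-5p were the 2 members with the highest ratios of motoneurons over V3 and of V2a over V3. Their ratio to each other, miR-30b-5p over miR-30d-5p, was 0.0569 in motoneurons, 0.0578 in V2a and 0.0453 in V3. At E10.5 this ratio was 0.00898 and 0.00565 in motoneurons and 0.0109 and 0.0104 in non-motoneurons, without overlap. The other arm, miR-30b-3p, had a V2a over V3 ratio of 0.45, from about 7 and 15 reads. Whether the neighbouring hairpins Mir30b and Mir30d are regulated together was not tested. Of the 3p arms, miR-30e-3p had 200.3 TPM in motoneurons, 245 TPM in V2a and 243 TPM in V3, and miR-30a-3p had 195 TPM in motoneurons, 168 TPM in V2a and 212 TPM in V3.

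**Figure D3:**
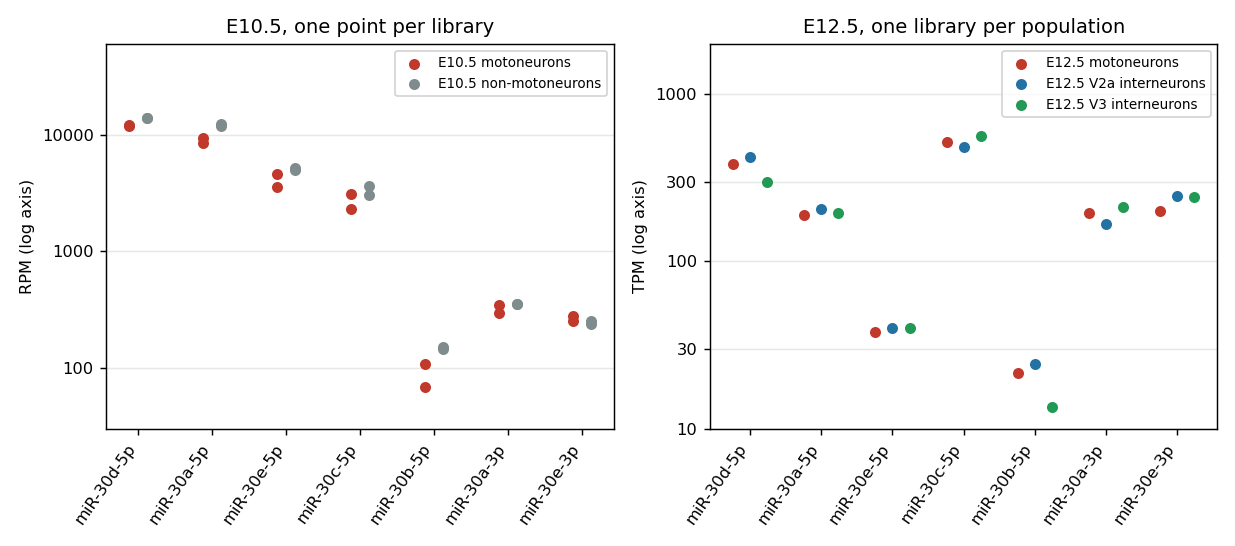
Levels of the 7 miR-30 members on log axes, in RPM at E10.5 (left, 1 point per library, 2 libraries per group) and in TPM at E12.5 (right, 1 library per population). miR-30d-5p and miR-30a-5p lead at E10.5 and miR-30c-5p leads at E12.5. Apart from miR-30b-5p, lower in motoneurons at E10.5 and in V3 at E12.5, the populations of a stage lie fairly close together for each member.

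For miR-30c-5p and miR-30e-5p, the share in the summed 5p level differed more between the tables than within a table. Among the E12.5 libraries the share of miR-30d-5p ran from 26.7% in V3 to 35.8% in V2a. At E12.5 miR-30c-5p held 45.1% of the summed 5p level in motoneurons, 41.1% in V2a and 50.9% in V3. In the 4 E10.5 libraries it held 8.71% to 10.6% of the summed 5p level. miR-30e-5p held 3.30% in motoneurons, 3.42% in V2a and 3.60% in V3. Stage and table cannot be told apart, because the 2 tables were made and scaled separately; no test was made across them.

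**Figure D4:**
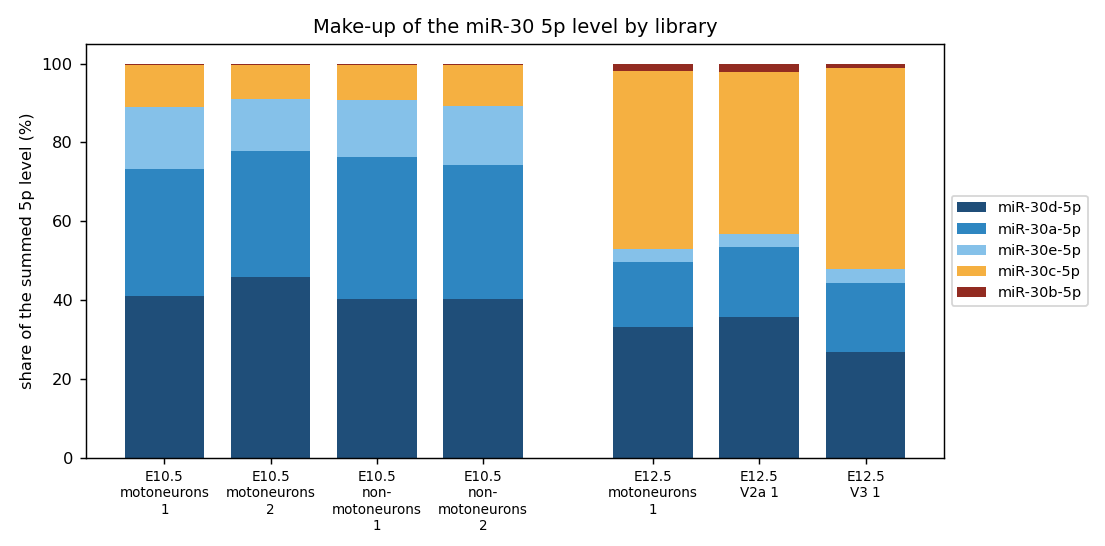
Stacked bars give the share of each member, in percent, in the summed miR-30 5p level of each library (reads at E10.5, TPM at E12.5). miR-30d-5p and miR-30a-5p fill most of each E10.5 bar and miR-30c-5p is the widest band of each E12.5 bar.

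The 2 arms of Mir30a and of Mir30e were compared within each library. At E10.5, miR-30a-5p exceeded miR-30a-3p by 31.9-fold and 24.7-fold in motoneurons and by 35.3-fold and 33.3-fold in non-motoneurons. miR-30e-5p exceeded miR-30e-3p by 18.3-fold and 12.7-fold in motoneurons and by 19.8-fold and 21.9-fold in non-motoneurons. Both ratios were thus lower in each motoneuron library than in either non-motoneuron library (two-sided exact permutation p = 0.333 for each, the smallest allowed). Among 77 hairpins with both arms past the filter in all 4 libraries, the 5p over 3p ratio of miR-30a was 8th and that of miR-30e 13th from the highest. How many of the 77 had ratios without overlap between the groups was not counted.

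In the E12.5 table the arms stood otherwise. The 5p over 3p ratio of miR-30a was 0.98 in motoneurons, 1.23 in V2a and 0.92 in V3. That of miR-30e was 0.19 in motoneurons, 0.16 in V2a and 0.16 in V3, so that the 3p arm was the more abundant one in each library. Among 89 hairpins in this table, miR-30a was 46th and miR-30e 70th from the highest. Of 59 hairpins measured in both tables, 47 had the same arm higher in both on average over the libraries, 4 (miR-30e among them) had the 5p arm higher at E10.5 and the 3p arm at E12.5, and 8 had the opposite. Again stage and table cannot be told apart, and the arms of both hairpins lie in bundles that share reads.

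**Figure D5:**
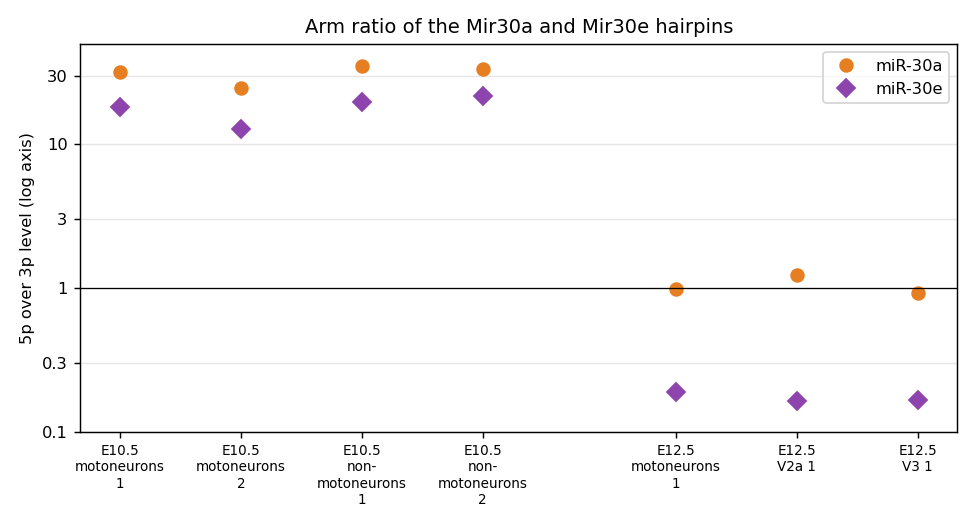
The level of the 5p arm over that of the 3p arm (log axis) of the Mir30a and Mir30e hairpins in each of the 7 libraries. At E10.5 all 8 ratios lie above 10; at E12.5 miR-30a lies near 1 and miR-30e near 0.2.

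The other arms of miR-30 hairpins numbered 5, and 4 of them were abundant enough to test at E10.5. Of these, 0 were called in either direction, where 42.3% of all tested miRNAs were called. Their median log2 fold change was -0.36, beside -0.34 over all miRNAs tested. The most abundant was miR-30c-2-3p, with 197 and 178 RPM in motoneurons and 269 and 308 RPM in non-motoneurons (limma adjusted p = 0.0692 for a log2 fold change of -0.62, SE 0.23). At E12.5 it was higher in the motoneuron library as scaled to the total, at 160.4 TPM in motoneurons, 96.1 TPM in V2a and 103 TPM in V3. Its motoneuron ratio was 1.67 over V2a (95% counting interval 1.47 to 1.90) and 1.56 over V3 (1.38 to 1.78). On the log2 scale these were 0.74 and 0.64. Totals without the 5 most abundant miRNAs move all miRNAs of a library alike. They moved the log2 ratio of the summed 5p level from -0.029 to -0.68 over V2a and from 0.048 to -0.79 over V3. Over V3 this shift was larger than the 0.64 of miR-30c-2-3p, so its higher motoneuron level there depends on the scaling. Over V2a the shift was smaller than its 0.74, so under these totals motoneurons stay higher, but by less. miR-30c-1-3p, from the Nfyc intron, had 8.72 TPM in motoneurons, 4.46 TPM in V2a and 0 in V3. In V3, 3 reads would be 0.722 TPM, and the motoneuron value was 12.1-fold that. This leaves out counting error in the motoneuron library, where it had about 31 reads. miR-30d-3p had 7.03, 2.22 and 1.45 TPM and miR-30b-3p 6.75, 1.56 and 3.50 TPM in motoneurons, V2a and V3, all from 25 reads or fewer.

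A separate hairpin, Mir384 on chromosome X, yields the same 5p seed, and its mature arm is printed beside the family for comparison.
miR-384-5p: uGUAAACAauuccuaggcaaugu
miR-384-5p had 62.3 and 71.0 RPM in motoneurons and 19.3 and 40.8 RPM in non-motoneurons at E10.5, without overlap (limma adjusted p = 0.0634 for a log2 fold change of 1.21, SE 0.44). That difference missed the threshold. Set against the summed miR-30 5p level of the same library, miR-384-5p came to 0.214% and 0.267% in motoneurons and 0.056% and 0.118% in non-motoneurons, so the family outnumbered it widely at E10.5. At E12.5 it had 74.0 TPM in motoneurons, 55.1 TPM in V2a and 29.4 TPM in V3. That was a 2.51-fold difference of motoneurons over V3 as scaled to the total (95% counting interval 2.03 to 3.13). In this comparison 45.9% of all considered miRNAs passed 2-fold. Totals without the 5 most abundant miRNAs move all miRNAs of a library alike, and moved the log2 ratio of the summed 5p level from 0.048 to -0.79. That shift was smaller than the log2 ratio of miR-384-5p over V3 (1.33). Under these totals miR-384-5p thus stays higher in motoneurons, but by less than 2-fold. Against the summed miR-30 5p level, miR-384-5p came to 6.43% in motoneurons, 4.69% in V2a and 2.64% in V3.

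The miRNAs whose levels ran most like the summed 5p level were found by the Euclidean distance of log2 levels over the 7 libraries, each miRNA centred on its mean within each table, among 396 other miRNAs that passed the filter in both tables. They were miR-20b-5p, of the miR-17 seed family, at a distance of 0.27, then miR-3068-3p (0.28), miR-130b-3p (0.30), miR-181b-5p (0.34) and miR-101a-3p (0.35), where the median distance was 1.39. In E10.5 motoneurons over non-motoneurons their log2 fold changes ran from -0.49 to -0.12. By limma 0 of the 5 were called, where 42.3% of all tested miRNAs were. The 5 were picked for likeness over these same libraries, so small fold changes follow from the choice and are no separate result. miR-20b-5p shares a bundle of 4 rows with miR-20a-5p, miR-17-5p and miR-106a-5p. Their log2 fold changes were -1.43, -1.50 and -1.20, all called lower, so the value of miR-20b-5p alone is uncertain. miR-181b-5p and miR-101a-3p lie in bundles of 2 and 3 rows. The points share libraries and totals, so the distances describe these libraries only.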

How the data were processed

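Small RNA was sequenced from sorted spinal cells. Per the labels' protocols, papain-dissociated cells were sorted into lysis buffer and NEBNext libraries were prepared. The submitters' processing notes name Bowtie2; which genome build, annotation and counter were used is not given in the sources used here. RPM values of the E10.5 libraries were deposited by the authors in 1908 rows, grouped into 1793 bundles by shared reads. The E12.5 values, deposited without a named unit, were read as FPKM, because 75.4% to 84.0% of low values of miRNAs of other lengths fell within 0.05 of a whole read with their own length and 14.9% to 16.3% with 22 nt for all. Each E12.5 library was rescaled to TPM.

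For E10.5, log2(RPM + 1) values were fitted with limma (version 3.58.1, R 4.3.3) using two-sided moderated tests with a trended prior variance. Benjamini-Hochberg adjustment ran over all miRNAs with 15.2 RPM or more, equal to 10 reads of the median library, in 2 or more libraries. The pseudocount of 1 makes fold changes of low miRNAs look smaller. The fit was tested on simulated data. Counting intervals are exact binomial intervals of the reads of 2 libraries, with 22 nt as the length where RefSeq gave none; they cover counting error only. Named were the 7 members, the other miR-30 arms, rows sharing a member's seed and the 5 nearest profiles. Members and lists were chosen with earlier results of these data known. Alternatives covered pseudocount, filter, scaling, summed bundles, replicate block and each replicate left out.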

Additional observations from a re-analysis of the deposited data

How the results depend on the processing

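Of the miR-30 results at E10.5, the single call, miR-30a-5p as lower, held with totals without the mesenchymal and muscle markers and with a pseudocount of 10 RPM, but 0 members were called lower under quantile normalization, with the median of ratios, without the abundance filter, or with miR-218-5p or the 5 most abundant miRNAs left out of the totals, and 0 to 1 with a library left out (without motoneuron replicate 1 it was miR-30b-5p). Signs turned to 0.13, 0.076 and 0.24 for miR-30a-3p, miR-30d-5p and the 3p bundle with the median of ratios, and to 0.14, 0.092 and 0.25 with totals without miR-218-5p. With totals without the 5 most abundant miRNAs miR-30a-3p, miR-30c-5p, miR-30d-5p, miR-30e-5p, the summed 5p and the 3p bundle were at 0.23, 0.077, 0.18, 0.039, 0.066 and 0.34, and under quantile normalization miR-30a-3p, miR-30c-5p, miR-30e-5p and the 3p bundle were at 0.39, 0.38, 0.29 and 0.42. miR-30e-3p was at -0.041 with bundles summed and -0.031 with totals without the mesenchymal and muscle markers. The summed 5p level was called lower with those totals (-0.45) and under quantile normalization of the summed bundles (-0.33). With a library left out, the 3p bundle ranged from -0.14 to 0.056, the difference in the share of miR-30c-5p from -0.88 to 1.03 and that of miR-30e-5p from -1.47 to 1.02 percentage points. Of the other alternative values of single miRNAs or shares, 139 kept their direction and call, 36 ratios at E12.5 moved out of their counting interval, 1 gained a call and 9 lost one, all 9 for miR-30a-5p. The 2 alternatives without miR-218-5p and without the markers were chosen after seeing the data.

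Over all miRNAs, 57 were called higher, against 34 with no filter, 88 without miR-218-5p, 105 without the 5 most abundant, 114 under quantile normalization and 27 to 48 with a library left out, which leaves a lone sample assumed to vary like the other group and drops miRNAs that no longer pass the filter. The 151 called lower became 100 under quantile normalization and 106 to 125 with a library left out. With the replicate number as a block, 67 were higher and 162 lower, and miR-30a-5p stayed called (limma adjusted p = 0.0284); same-numbered libraries deviated together with a correlation of 0.26, but 2 pairs do not show that the numbers pair samples. At E12.5 the log2 ratio of the summed 5p level was 0.22 with the median of ratios and -0.68 without the 5 most abundant miRNAs for motoneurons over V2a, -0.19 and -0.79 for motoneurons over V3, and -0.42 and -0.11 for V2a over V3. Beyond the scaling itself, the cause was not tested. Depth limits miR-30b-5p and the rare 3p arms most.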

Other observations

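miR-30f is annotated on the strand opposite to Mir30e, at the same coordinates. It stood at 2.73 and 8.70 RPM in E10.5 motoneurons and 9.28 and 3.91 RPM in non-motoneurons, below the abundance filter, and at 3.10 TPM in E12.5 motoneurons, 6.31 TPM in V2a and 6.03 TPM in V3. It shares reads with miR-30a-3p and miR-30e-3p in the deposited E10.5 table, so its values are uncertain. The arm miR-384-3p, from the Mir384 hairpin that carries the miR-30 5p seed, had 81.0 and 89.2 RPM in E10.5 motoneurons and 29.6 and 29.7 RPM in non-motoneurons (limma adjusted p = 0.00978 for a log2 fold change of 1.49, SE 0.32). At E12.5 it had 61.3 TPM in motoneurons, 60.7 TPM in V2a and 28.6 TPM in V3.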
